A study of Mus musculus with 12 samples.

Results

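The replication-dependent histone genes encode the core and linker histones that package newly made DNA. They were taken here as every row of the gene count table whose symbol starts with Hist1h, Hist2h, Hist3h or Hist4h, leaving out 1 row marked as a pseudogene by the suffix -ps. This gave 69 of 54351 genes, of which 6 encode linker histone H1, 20 H2A, 18 H2B, 12 H3 and 13 H4. Their messenger levels were compared in 12 mouse RNA-seq libraries that form 4 groups of 3. The LN3 thymus and LN3 spleen groups consisted of cells of T-cell acute lymphoblastic leukaemia, or T-ALL, taken from those organs of visibly ill mice with the genotype LN3 tg, strain C57BL/6, and were not sorted further according to the labels. The WT thymocytes came from the thymus of tumour-free wild-type mice, and the WT CD8 group was spleen T cells of such mice, enriched for CD8 T cells by negative selection to a stated purity of 85 to 95%. The nature of the LN3 transgene and its promoter is not stated in the material used, and neither is the age of the mice. The LN3 thymus and LN3 spleen samples share tumour numbers in their titles, and whether same-numbered samples came from the same mouse is not stated. Nothing in the labels says that each sample of a group is from its own mouse. The p-values therefore reflect the spread among samples, and part of that spread may be technical.

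Core histones H2A, H2B, H3 and H4 form the nucleosome, and H1 binds the linker DNA between nucleosomes. Dividing cells make these proteins in S phase, when their messengers rise in step with DNA synthesis, and resting T cells hold few of them. The messengers are unusual in that most end in a conserved stem-loop bound by the stem-loop binding protein SLBP and carry no poly(A) tail, although some genes also make tailed forms. RNA was selected here for poly(A) tails, so a messenger that lacks one was counted only as far as it was carried through that selection.

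The stem-loop was searched as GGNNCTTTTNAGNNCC in the annotated transcripts of build GRCm38 (GENCODE vM21, on the strand of the gene). It was present in 44 of the 69 histone genes, against 0.055% of 141690 other transcripts. The most frequent form, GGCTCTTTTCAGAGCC, was in 26 genes, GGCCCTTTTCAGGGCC was in 7 and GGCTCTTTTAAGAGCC in 6. In 22 genes the annotated transcript ended within 100 bases after the stem-loop, in 22 it ran on for more than 100 bases, and in 25 no match was found. A gene without a match can have an annotated model that stops short of the stem-loop. The examples below show the sites of genes that the results turn on, 5′ to 3′, with the stem-loop in capitals.
Hist1h2ap: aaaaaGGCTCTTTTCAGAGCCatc
Hist1h2bf: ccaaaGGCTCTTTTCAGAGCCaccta
Hist1h2bg: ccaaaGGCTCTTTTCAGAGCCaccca
Hist1h3e: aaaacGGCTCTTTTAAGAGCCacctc
Hist1h1c: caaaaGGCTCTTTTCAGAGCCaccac
Hist3h2a: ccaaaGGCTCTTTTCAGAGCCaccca
Hist2h4: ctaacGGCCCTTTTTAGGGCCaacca
The annotated transcript continued for 3 bases past the stem-loop in Hist1h2ap, 29 in Hist1h2bf and 155 in Hist1h2bg. It continued for 369 bases in Hist1h3e, 840 in Hist1h1c, 1257 in Hist2h4 and 1643 in Hist3h2a. Hist2h2be, an H2B gene with an annotated transcript of 2620 bases, held no match.

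The symbols name 4 clusters. The Hist1 genes number 56, of which 55 lie within chr13:21715763-23934851 and the pseudogene Hist1h2al apart from them at chr13:51202727-51203065. The Hist2 cluster spans chr3:96219865-96270132 with 10 genes, the Hist3 cluster chr11:58948920-58956830 with 2, and the only Hist4 gene, Hist4h4, lies at chr6:136801553-136804415. In the annotation 67 are protein coding, while Hist1h2aj and Hist1h2al are pseudogenes. Each gene whose stem-loop is printed has 1 annotated transcript.

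Promoters are shown for 3 genes named in the results, the H2B genes Hist1h2bg and Hist1h2bf and the H1 gene Hist1h1c. The 120 bases before the RefSeq transcription start (GRCm38.p6) are printed 5′ to 3′ on the strand of the gene, with matches to TATAAA (the TATA box), CCAAT (or its reverse complement ATTGG) and ATTTGCAT (the octamer bound by OCT1) in capitals. The windows are chr13:23571280-23571399 on the plus strand for Hist1h2bg, chr13:23574208-23574327 on the minus strand for Hist1h2bf and chr13:23738687-23738806 on the plus strand for Hist1h1c.
Hist1h2bg: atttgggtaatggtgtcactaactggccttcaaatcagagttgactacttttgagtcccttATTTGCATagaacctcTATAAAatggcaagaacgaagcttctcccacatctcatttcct
Hist1h2bf: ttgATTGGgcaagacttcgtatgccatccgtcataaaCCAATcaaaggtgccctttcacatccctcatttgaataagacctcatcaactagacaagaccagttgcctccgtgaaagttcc
Hist1h1c: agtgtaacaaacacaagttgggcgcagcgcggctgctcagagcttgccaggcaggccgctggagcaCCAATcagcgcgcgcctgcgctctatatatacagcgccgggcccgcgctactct
Of 61 histone genes matched to a RefSeq promoter, 47 (77.05%) held CCAAT on either strand, against 24.23% of 27025 genes. The TATAAA motif was in 19 (31.15%) against 7.45%, and the octamer in 7 (11.48%) against 0.93%. CCAAT was in 6 of 6 H1, 17 of 17 H2A and 15 of 16 H2B promoters but in 7 of 10 H3 and 2 of 12 H4 promoters. The octamer was in 6 H2B promoters and 1 H2A promoter.

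Total counts per library ran from 12694571 to 42483898, and 3 counts correspond to 0.0657 to 0.262 CPM (the unit of all levels below, a count divided by the TMM-adjusted library size). All 10 T cell markers (Cd3e, Cd3d, Cd3g, Lck, Cd2, Trac, Thy1, Cd8a, Cd8b1 and Cd4) had counts in each group, with sums of 3010 to 12100 CPM per library. Markers of other cells were present too. The 7 erythroid markers found in the table summed to 1910 to 6440 CPM in LN3 spleen, against 37.7 to 687 CPM in WT CD8, while 8 B cell markers summed to 285 to 2160 and 504 to 1430 CPM. The 9 myeloid markers summed to 292 to 1460 CPM in LN3 spleen, against 303 to 3180 CPM in WT CD8. In LN3 thymus and WT thymocytes the erythroid sums were 7.94 to 141 and 13.8 to 3940 CPM, the B cell sums 287 to 468 and 352 to 603, and the myeloid sums 59.3 to 380 and 106 to 259. The 8 markers of stroma and epithelium summed to 113 to 371 CPM over all libraries. None of the markers found was without counts in any group, and their part in the histone results was not tested. WT thymocytes 3 stood apart from its group in further genes, chosen after their values were seen. In WT thymocytes 1, 2 and 3, Atrx, a chromatin remodeller, was at 422, 507 and 23.8 CPM, Casp8ap2 at 78.4, 94.2 and 8.34, Npat at 57.2, 53.9 and 11.87, the DNA polymerase gene Pola1 at 57.0, 73.5 and 13.9, and the proliferation marker Mki67 at 865, 1002 and 180. Library 3 was the lowest in all 5. The summed level of the DNA replication genes, given below, went the other way and was highest in library 3. The part of this in the histone results was not tested.

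The summed level of the 69 histone genes was lowest in WT CD8. It was 88.4, 72.1 and 38.2 CPM in WT CD8 libraries 1, 2 and 3, a mean of 66.2 ± 25.6 (SD, n = 3). In WT thymocytes it was 364, 222 and 1124 CPM, a mean of 570 ± 485. In LN3 thymus it was 171, 1606 and 372 CPM, a mean of 717 ± 777. In LN3 spleen it was 1613, 520 and 1056 CPM, a mean of 1063 ± 547. Each WT CD8 library was below all 9 others, while the other groups overlapped and varied up to several-fold within themselves. Histone genes took 0.00411% to 0.129% of all counts. In bulk samples, fewer cells that express a gene and less of its RNA per cell cannot be told apart.

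The histone sum moved across libraries with RNAs that have no poly(A) tail. The share of counts of the ribosomal RNA gene CT010467.1 was 4.61% to 10.5% in 6 libraries and 0.44% to 1.45% in the other 6, a split taken at the widest gap after the data were seen. The higher class held LN3 thymus 2 and 3, all LN3 spleen libraries and WT thymocytes 3. The lower class held LN3 thymus 1, WT thymocytes 1 and 2 and all WT CD8 libraries. A further 173 genes of untailed RNAs (7SK, RNase MRP, RNase P, small nuclear and small nucleolar RNAs and their like), 93 of them with counts, summed to 101, 1551 and 445 CPM in LN3 thymus and 832, 427 and 487 CPM in LN3 spleen. They summed to 210, 132 and 869 CPM in WT thymocytes and 234, 130 and 101 CPM in WT CD8. Within each of the 4 groups, the library with the highest histone sum also had the highest sum of these RNAs.

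**Figure D1:**
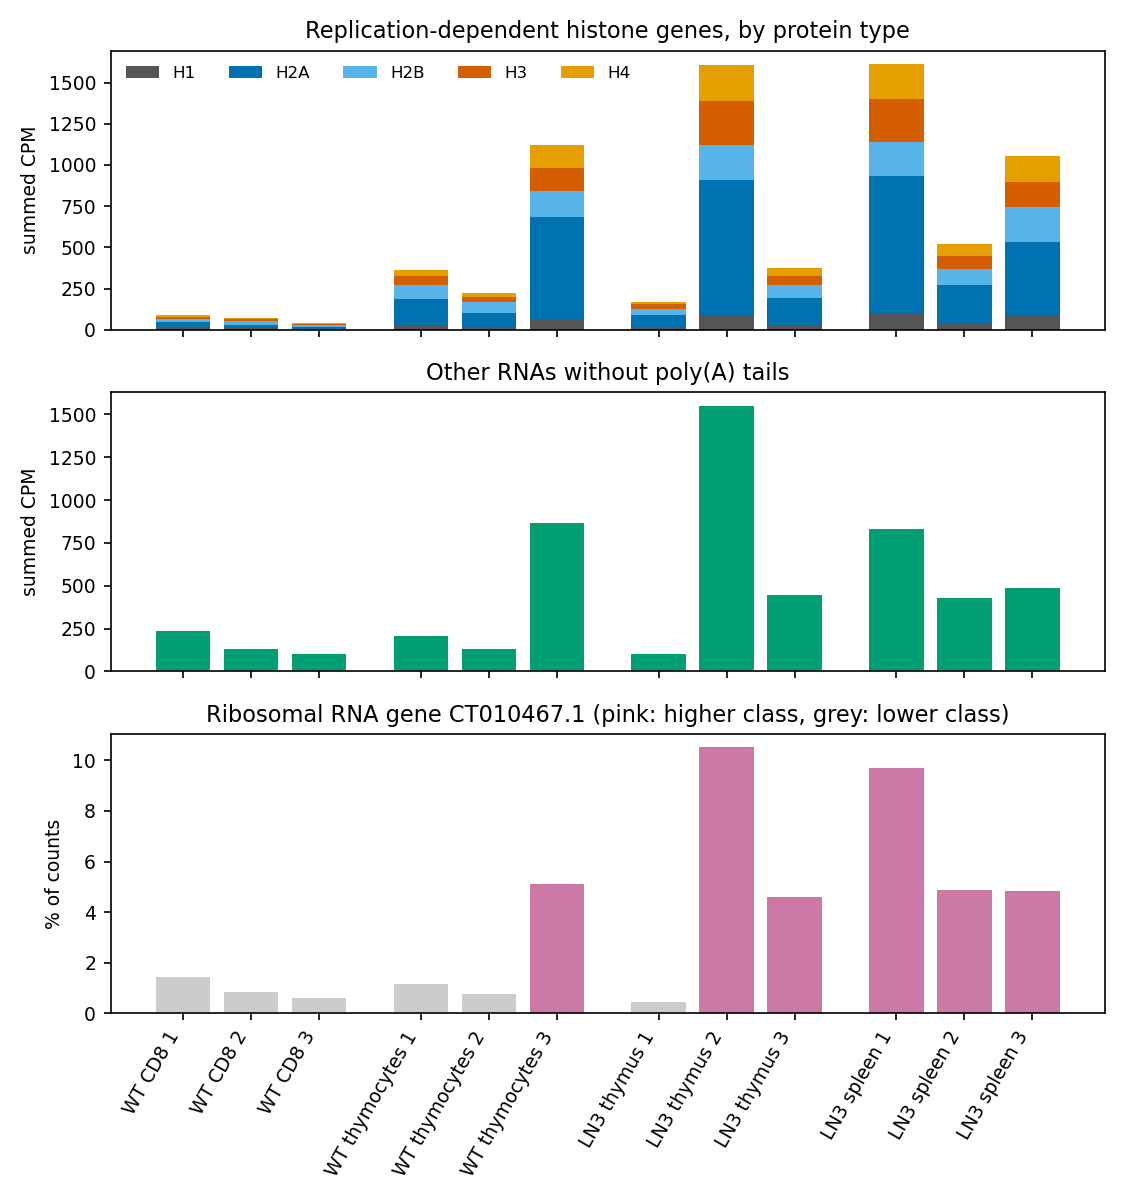
Summed CPM of the 69 histone genes by protein type, summed CPM of 173 other genes of untailed RNAs, and percent of counts from the ribosomal RNA gene CT010467.1, one bar per library. The 3 WT CD8 libraries have the lowest histone sums, 38.2 to 88.4 CPM, and LN3 thymus 2 and WT thymocytes 3 stand above the other libraries of their groups in all panels.

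The ratio of the histone sum to the sum of the other untailed RNAs separated WT CD8 from the rest. It was 0.378, 0.555 and 0.38 in the WT CD8 libraries. It was 1.74, 1.68 and 1.29 in WT thymocytes, 1.69, 1.04 and 0.837 in LN3 thymus, and 1.94, 1.22 and 2.17 in LN3 spleen. The highest WT CD8 value was below the lowest of the other 9 libraries, and the other groups overlapped on this scale.

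Within LN3 thymus and WT thymocytes, most histone genes had a several-fold higher mean over the libraries of the higher ribosomal RNA class. In LN3 thymus, the mean of libraries 2 and 3 over library 1 had a median ratio of 7.31 over 60 histone genes with counts in library 1, from 1.27 to 59.9, and 57 exceeded 2. Over all genes tested the median was 1.04 and 9.90% exceeded 2. The mean of libraries 2 and 3 rested mostly on library 2, as the histone sums were 171, 1606 and 372 CPM in libraries 1, 2 and 3. Hist1h2ap, Hist1h3h, Hist1h3i and Hist3h2ba were lower in library 3 than in library 1. The other tested genes with counts in library 1 were higher in library 3. In WT thymocytes, library 3 over the mean of libraries 1 and 2 had a median of 3.86 over 61 histone genes, and 54 exceeded 2, against a median of 0.965 and 13.1% over all genes tested. These are values of single libraries and carry no test. Hist2h2be was among the least variable, with ratios of 1.57 and 1.46. Hist3h2ba, an H2B gene, had the lowest ratio in LN3 thymus, 1.27, and Hist2h2aa1, an H2A gene, the lowest in WT thymocytes, 0.933. Genes whose annotated transcript ends within 100 bases after the stem-loop had median ratios of 7.90 and 4.90, those that run on past it 6.58 and 3.29, and those with no match 6.28 and 3.66.

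**Figure D2:**
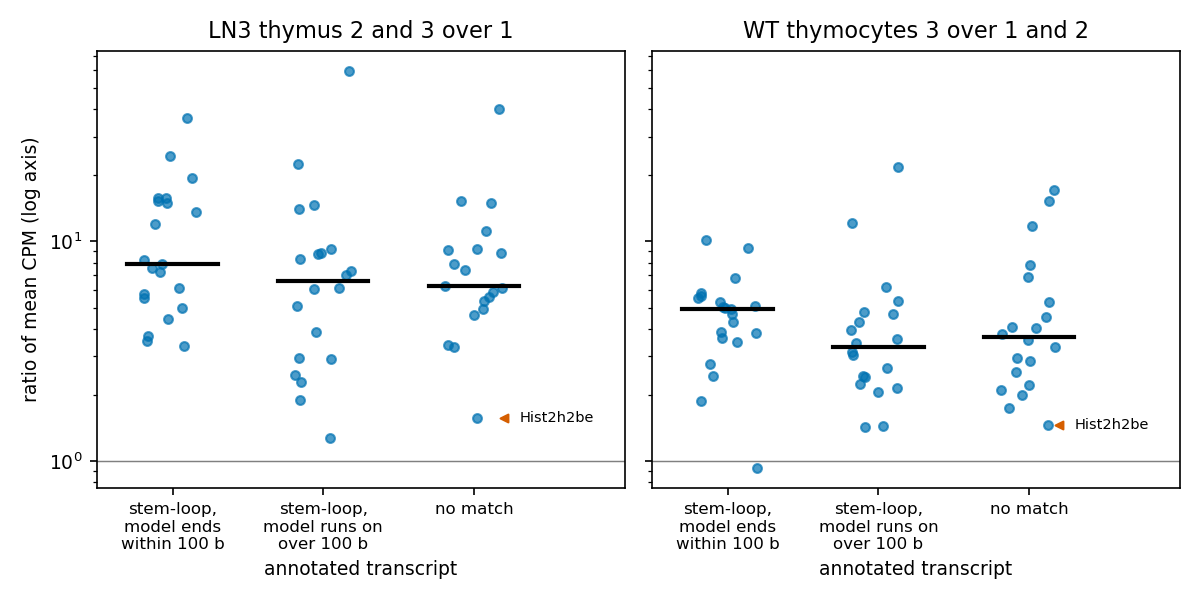
Ratio of mean CPM between libraries of the higher and lower ribosomal RNA class within LN3 thymus (left) and WT thymocytes (right) on a log axis, one point per tested histone gene and a bar at the median of each annotation class. Nearly all points lie above 1 in all 3 classes, and Hist2h2be lies low in both groups at 1.57 and 1.46.

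Compared per length, 2 H2A genes stood far above the rest. Over the 12 libraries, Hist1h2ap had a mean of 246 and Hist1h2af of 233 CPM per kb of annotated transcript, followed by the H2B gene Hist1h2bg with 36.5. Together Hist1h2ap and Hist1h2af held 21.4% to 42.5% of histone counts in the 9 libraries of the other groups and 5.27% to 8.97% in WT CD8. Only 6.64% of the 31-base words of the Hist1h2ap transcript and 5.69% of those of Hist1h2af occur in no other gene's transcript, so the split of reads between near-identical copies is uncertain for both. Over the 69 genes the median of this share was 38.1%, with 15 genes under 10% and 25 over 50%, and Hist2h2be (97.2%), Hist2h4 (97.4%) and Hist1h1c (88.6%) were among the most distinct. Of the 69, 26 overlap another annotated gene, 7 on the same strand and 23 on the opposite strand, among the latter Hist1h2ap, Hist1h2af, Hist1h2ah and Hist1h2an. No source used states that counting kept the strand, so reads of antisense partners cannot be told apart. Hist3h2a overlaps Trim17 on its own strand, so its reads may in part belong to that gene.

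Of the 69 genes, 61 passed the filter on low counts and were tested. Hist1h2aa, Hist1h2al and Hist1h2ba had no count in any library. The other 5 had totals over the 12 libraries of 6 counts (Hist1h1t, the testis H1), 21 (Hist1h2aj), 38 (Hist1h2ao and Hist2h2ab each) and 106 (Hist2h3c1). A gene could pass through the groups in which it is high, so counts over the 61 describe those genes and not the whole family.

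**Figure D3:**
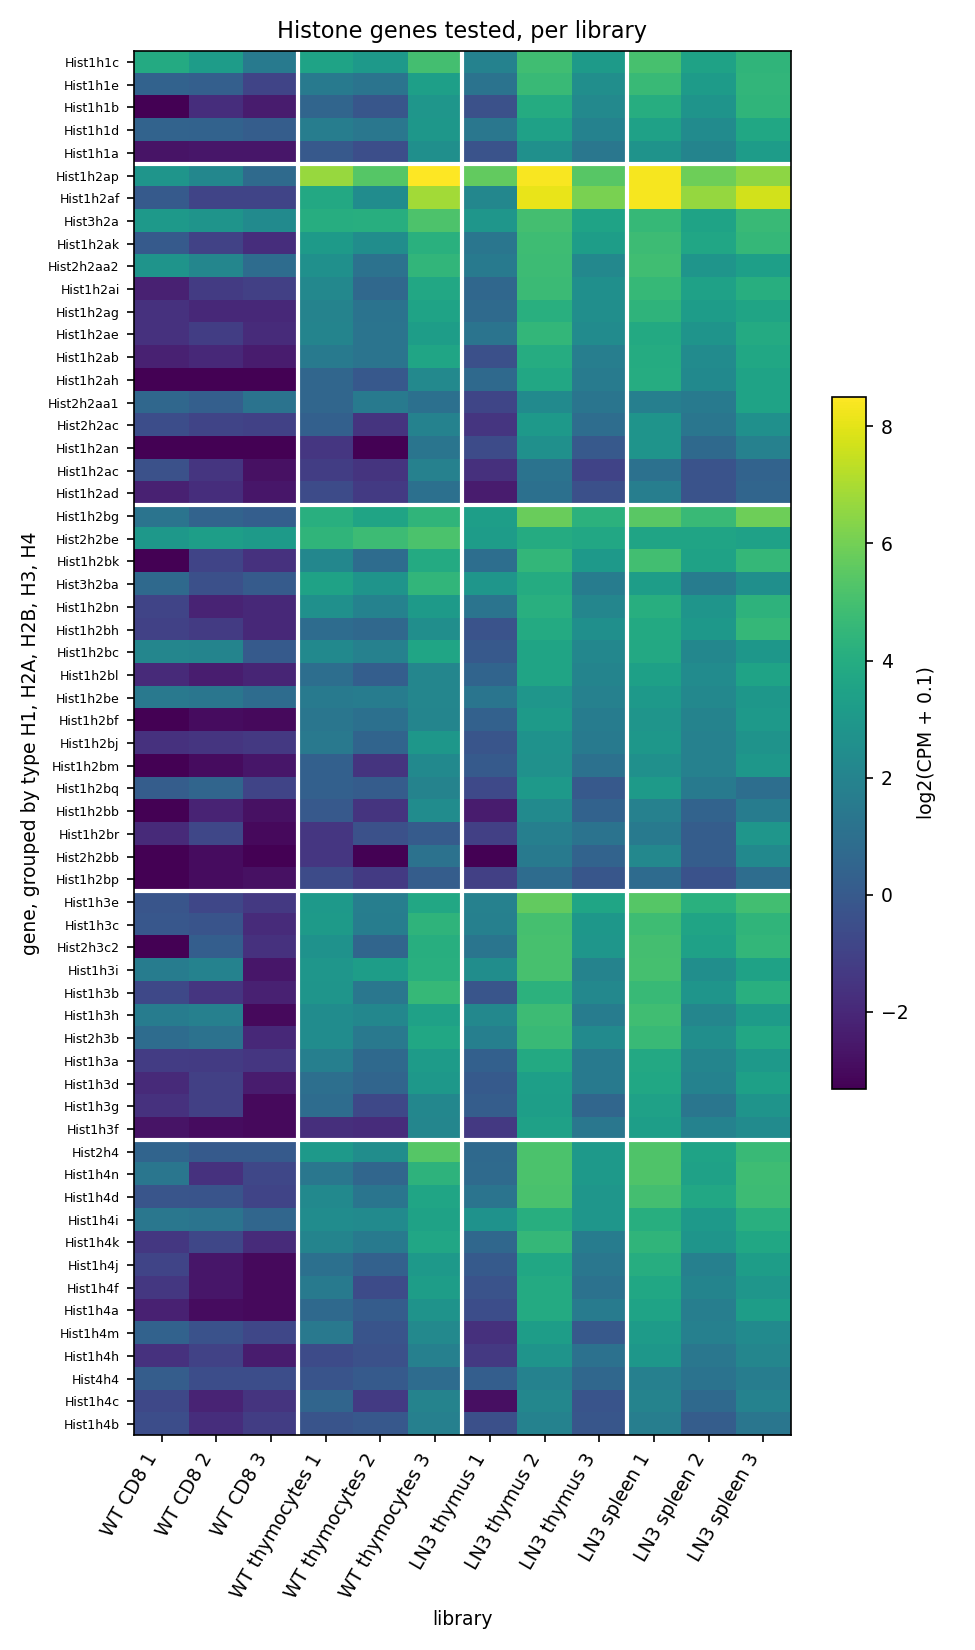
Levels of the 61 tested histone genes as log2(CPM + 0.1), one row per gene grouped by type and one column per library. The 3 WT CD8 columns are darkest, and Hist1h2ap and Hist1h2af are the brightest rows.

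The comparison of LN3 spleen with WT CD8 asked how leukaemic cells in the spleen differ from normal T cells of that organ. Of the 61 tested histone genes, 51 were higher in LN3 spleen and 0 lower at an adjusted p under 0.05 (edgeR's quasi-likelihood test, Benjamini-Hochberg over all genes tested), against 17.9% of all 20897 genes called higher and 13.0% called lower. At an unadjusted p under 0.05, 56 were higher and 0 lower, against 9128 of 20897 genes in either direction. DESeq2 and limma also called 0 lower. The median log2 difference over the 61 was 5.20, against −0.11 over all genes. All types contributed, with 4 of 5 H1, 12 of 15 H2A, 14 of 17 H2B, 9 of 11 H3 and 12 of 13 H4 genes tested called higher. In 60 of the 61, the lowest LN3 spleen library was above the highest WT CD8 library, which held for 27.5% of all genes tested. The 60 included each of the 51, which were called from the same values.

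The 4 genes with the lowest adjusted p were H2B genes of the Hist1 cluster. Hist1h2bf was at 6.98, 3.85 and 8.43 CPM in LN3 spleen libraries 1, 2 and 3, and at 0, 0.0316 and 0.0219 CPM in WT CD8, 361 counts against 2. The groups did not overlap, and the ratio of counts per scaled total was 272 (95% counting interval 74.6 to 2250, adjusted p = 0.000116 in edgeR). Hist1h2bg, the H2B gene with the highest mean CPM, was at 44.8, 26.1 and 59.6 CPM in LN3 spleen, against 2.24, 1.27 and 1.07 in WT CD8. Its log2 difference was 4.85 (SE 0.64, adjusted p = 0.000214 in edgeR), and all LN3 spleen libraries were above all WT CD8 libraries. Hist1h2bl rose by 6.09 log2 units (SE 0.91) and Hist1h2bn by 6.00 (SE 0.90), with adjusted p of 0.000489 and 0.000495 in edgeR.

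The largest fitted differences were in H2A genes. Hist1h2ah was at 16.1, 4.75 and 11.4 CPM in LN3 spleen and had no count in WT CD8, at least 99.4-fold higher given a floor of 3 counts per library (adjusted p = 0.000637 in edgeR). Hist1h2an, at 6.89, 1.54 and 3.59 CPM, also had none in WT CD8 and was at least 37.0-fold higher (adjusted p = 0.00679 in edgeR). Hist1h2af was at 322, 98.6 and 205 CPM against 0.929, 0.443 and 0.438, a log2 difference of 8.49 (SE 1.67, adjusted p = 0.00307 in edgeR). Hist1h2ap was at 325, 59.6 and 88.7 CPM against 6.99, 4.30 and 1.58, a log2 difference of 5.22 (SE 1.12, adjusted p = 0.00419 in edgeR). In each of these 4 genes the groups did not overlap, and in all 4 at most 11.02% of the 31-base words were unique to the gene, so the split between copies is uncertain.

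The H3 and H4 genes with the highest mean CPM did likewise. Hist1h3e was at 42.1, 18.3 and 29.8 CPM in LN3 spleen, against 0.765, 0.475 and 0.285 in WT CD8, a log2 difference of 5.93 (SE 0.95, adjusted p = 0.000802 in edgeR). Hist2h4 was at 38.0, 11.7 and 25.4 CPM against 1.31, 0.918 and 0.919, a log2 difference of 4.58 (SE 1.07, adjusted p = 0.00693 in edgeR). Neither gene's groups overlapped.

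All 3 LN3 spleen libraries were in the higher ribosomal RNA class and all 3 WT CD8 libraries in the lower, so that class and group cannot be told apart within this pair. In fits over the 12 libraries with the class as a term, chosen after the data were seen, 17 of 61 histone genes were called higher, against 7.27% of all genes, and the median log2 difference was 2.80. Only LN3 thymus and WT thymocytes held libraries of both classes. The class effect taken off in that fit therefore came from those thymus groups and not from the spleen pair. With the log2 share of CT010467.1 as a term, 35 were called higher, against 10.1% of all genes, and the median was 3.02. Hist1h2bf and Hist1h2bg were called in both fits, at 6.35 and 3.61 with the class term (adjusted p = 0.00222 and 0.00962 in edgeR), whereas Hist2h4 fell to 1.38 with the class term (adjusted p = 0.327 in edgeR).

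The 10 tested genes that were not called were Hist1h1c, Hist1h2ac, Hist1h2bc, Hist1h2bq, Hist1h3h, Hist1h3i, Hist1h4m, Hist2h2aa1, Hist2h2aa2 and Hist2h2be, with fitted log2 differences of 0.38 to 2.87. The smallest was that of Hist2h2be. It was at 11.8, 11.8 and 10.7 CPM in LN3 spleen, against 7.76, 9.87 and 8.63 CPM in WT CD8, a log2 difference of 0.38 (SE 0.29, adjusted p = 0.318 in edgeR). Its groups did not overlap, but the gap was small beside those of the other H2B genes.

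The WT CD8 and WT thymocyte groups show the same genes in normal T-lineage cells. Of the 61 tested, 38 were lower in WT CD8 and 0 higher, against 8.49% of all genes called lower and 7.24% called higher (edgeR). At an unadjusted p under 0.05, 48 were lower and 0 higher, against 5982 of 20897 genes in either direction. DESeq2 and limma also called 0 higher. The median log2 difference was −3.89, against 0.00 over all genes tested. By type, 2 of 5 H1, 10 of 15 H2A, 12 of 17 H2B, 7 of 11 H3 and 7 of 13 H4 genes were called lower. In 47 of the 61, all WT CD8 libraries were below all WT thymocyte libraries, against 19.0% of all genes tested. This held for 37 of the 38 called, which were called from the same values. The exception was Hist1h2an, which had no count in WT thymocytes 2 either. This comparison and the one in the spleen share the WT CD8 libraries.

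Hist1h2bf again had the lowest adjusted p. It was at 2.43, 1.96 and 4.13 CPM in WT thymocytes, with 116 counts against 2 in WT CD8, a ratio of 130 (95% counting interval 35.1 to 1080, adjusted p = 0.000559 in edgeR). Hist1h2bg was at 17.6, 11.96 and 21.5 CPM in WT thymocytes and fell by 3.50 log2 units in WT CD8 (SE 0.61, adjusted p = 0.00213 in edgeR). Hist1h2bn was at 6.08, 3.68 and 8.52 CPM against 0.437, 0.127 and 0.153, and fell by 4.74 (SE 0.86, adjusted p = 0.00285 in edgeR). In these 3 H2B genes WT thymocytes 3 was the highest library, and no group overlapped. Hist1h2ah was at 1.42, 0.859 and 4.65 CPM in WT thymocytes, at least 21.3-fold higher than in WT CD8, where it had no count (adjusted p = 0.0038 in edgeR). Hist1h2ap was at 103, 42.3 and 363 CPM and fell by 5.32 (SE 1.12, adjusted p = 0.00676 in edgeR).

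Within the lower ribosomal RNA class, which leaves WT thymocytes 1 and 2 against the 3 WT CD8 libraries, 35 of 60 histone genes tested were lower and 0 higher, against 10.2% and 9.51% of all genes tested there, with a median log2 difference of −2.95. Of the 35, 33 were among the 38 called with all libraries. Hist1h2bf was at −6.41 and Hist1h2bg at −3.27 there (adjusted p = 0.000507 and 0.00148 in edgeR). Without WT thymocytes 3 but with all LN3 libraries in the fit, 21 histone genes were called lower, against 1472 of all 22436 genes. Without WT CD8 1 or without WT CD8 3 the counts were 23 and 22, against 1013 of 22168 and 1192 of 21418 genes.

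**Figure D4:**
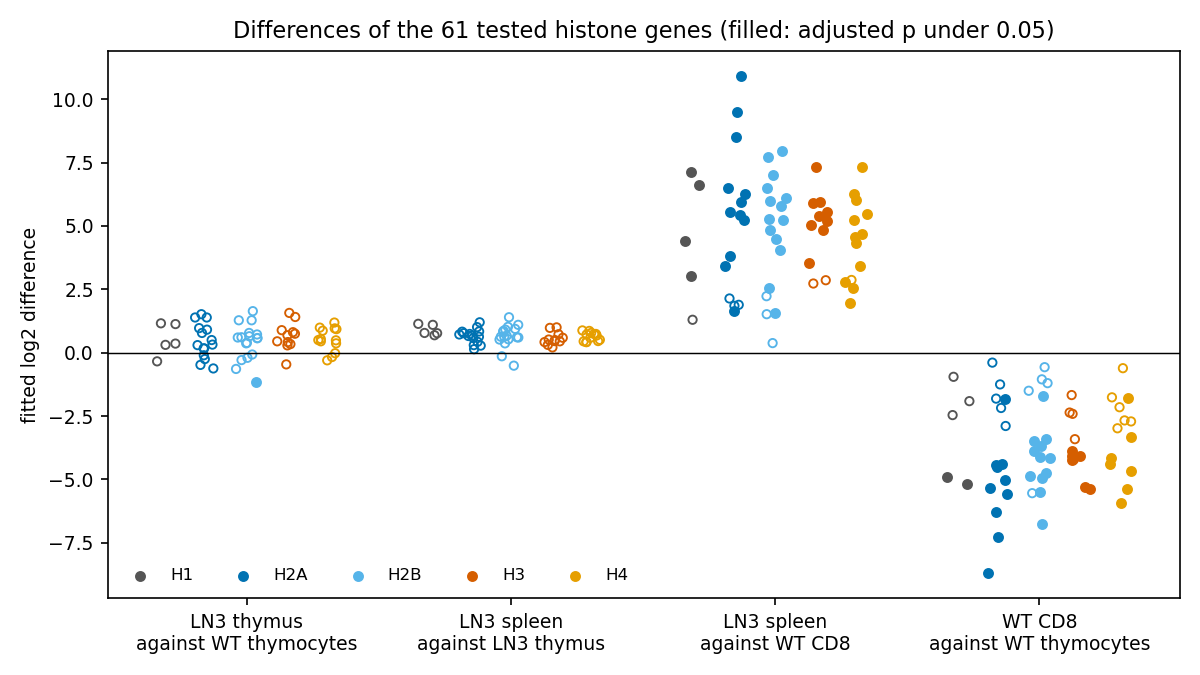
Fitted log2 differences of the 61 tested histone genes in 4 comparisons, one point per gene, coloured by type, filled where the adjusted p was under 0.05. Points lie between −1.17 and 1.64 in the first 2 comparisons, while 51 genes are called above 0 in LN3 spleen against WT CD8, and 38 are called below 0 in WT CD8 against WT thymocytes.

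The comparison of LN3 thymus with WT thymocytes asked how leukaemic cells of the thymus differ from normal thymocytes. Here 0 of 61 histone genes were higher and 1 was lower, against 6.06% of all genes called higher and 5.21% called lower (edgeR). At an unadjusted p under 0.05, 0 were higher and the same 1 was lower, against 5172 of 20897 genes in either direction. DESeq2 and limma also called 0 higher. The median log2 difference was 0.50, and 47 of 61 fitted differences were above 0. The direction turned in fits chosen after the data were seen, to a median of −0.37 with 17 of 61 above 0 with the ribosomal RNA class as a term and −0.27 with 22 of 61 above 0 with the log2 share. The median also rested on single libraries, being −0.81 without LN3 thymus 2 and 1.49 without WT thymocytes 3, where 1 gene, Hist1h3f, was called higher (adjusted p = 0.0487 in edgeR).

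The gene that fell was Hist2h2be. It was at 9.11, 15.2 and 13.4 CPM in LN3 thymus libraries 1, 2 and 3 and 21.5, 27.5 and 35.7 CPM in WT thymocytes. All LN3 thymus libraries were below all WT thymocyte libraries, and the log2 difference was −1.17 (SE 0.29, adjusted p = 0.0224 in edgeR). The direction was the same without any 1 library, but the adjusted p rose to 0.0799 without LN3 thymus 1, 0.0587 without LN3 thymus 3, 0.0556 without WT thymocytes 2 and 0.0516 without WT thymocytes 3. Among libraries of the lower ribosomal RNA class alone (LN3 thymus 1 against WT thymocytes 1 and 2) the fitted difference was −1.44, and among those of the higher class alone (LN3 thymus 2 and 3 against WT thymocytes 3) −1.27. Each sets 1 library on one side, so these are given as values with no test.

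Hist2h2be had its highest levels in WT thymocytes. It was also lower in WT CD8 than in WT thymocytes, by 1.69 log2 units (SE 0.30, adjusted p = 0.00229 in edgeR), and no WT CD8 library overlapped. Ordered by mean, WT thymocytes (28.2 ± 7.1 CPM, SD, n = 3) came first, followed by LN3 thymus (12.6 ± 3.1), LN3 spleen (11.4 ± 0.61) and WT CD8 (8.75 ± 1.06). LN3 thymus and LN3 spleen overlapped, and neither they nor LN3 spleen and WT CD8 differed beyond their spread by the test (adjusted p = 0.932 and 0.318 in edgeR).

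The remaining histone genes in the thymus depended on which libraries were set against each other. LN3 thymus 1 over the mean of WT thymocytes 1 and 2, all of the lower class, had a median ratio of 0.591, and 6 of 61 genes were above 1. The mean of LN3 thymus 2 and 3 over WT thymocytes 3, all of the higher class, had a median of 1.10, and 36 of 61 were above 1. In a fit to the lower class alone, with 1 LN3 thymus library assumed to vary like the other groups, 2 of 60 genes were lower, a share below the 5.59% of all genes. The H4 gene Hist2h4 was at 1.55, 35.4 and 8.22 CPM in LN3 thymus and 7.97, 5.52 and 42.1 in WT thymocytes, so that over all libraries the groups overlapped. Hist1h2bg was at 9.66, 55.3 and 19.5 CPM in LN3 thymus and 17.6, 11.96 and 21.5 in WT thymocytes, and the groups overlapped too (adjusted p = 0.464 in edgeR).

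LN3 spleen was set against LN3 thymus to compare leukaemic cells of both organs. No histone gene was called, higher or lower, by edgeR, DESeq2 or limma. Of all genes, edgeR called 0.694% higher and 0.0287% lower. At an unadjusted p under 0.05 in edgeR, 0 histone genes passed, against 1817 of 20897 genes in either direction. The median log2 difference was 0.67, and 59 of 61 fitted differences were above 0, from −0.51 to 1.40. For each of the 61 genes the groups overlapped, whereas 11.5% of all genes tested had groups that did not. Without LN3 thymus 2 the median was 2.05, against −0.03 over all genes, and 0 were called, against 6 higher and 1 lower of 22445 genes. In that fit 38 histone genes passed an unadjusted p under 0.05, for which no share over all genes is given.

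The leukaemia difference was tested between organs, as LN3 thymus minus WT thymocytes less LN3 spleen minus WT CD8. It was smaller in the thymus for 19 of 61 histone genes, against 3.29% of all genes called in that direction, and larger for 0, against 0.895% (edgeR). At an unadjusted p under 0.05, 47 were lower and 0 higher, against 3648 of 20897 genes in either direction. DESeq2 and limma called 0 higher. The median difference of differences was −4.53. The median log2 difference was −3.89 in WT CD8 against WT thymocytes and 0.67 in LN3 spleen against LN3 thymus. Those WT groups are thymocytes and enriched CD8 T cells, so organ and control cell type cannot be told apart. All 19 are Hist1 genes, as are 50 of the 61 tested, and by type they are 1 H1, 6 H2A, 8 H2B, 3 H3 and 1 H4. The values were −7.37 for Hist1h2bf (SE 1.14, adjusted p = 0.00435 in edgeR), −4.13 for Hist1h2bg (SE 0.80, adjusted p = 0.0122 in edgeR) and −5.60 for Hist1h2bn (SE 1.10, adjusted p = 0.0129 in edgeR). The count was 39 in DESeq2, against 1256 of 20308 genes. With the ribosomal RNA class as a term it was 11, against 2.36% of all genes, and with the log2 share 25, against 2.73%. With the replicate number as a block it was 4, against 2.04%, and whether same-numbered samples are paired is not known. It lay at 12 or fewer when LN3 thymus 1 or 3, LN3 spleen 1 or 3, WT thymocytes 1 or 3 or any WT CD8 library was left out, and at 37 without LN3 thymus 2. Over all genes the counts were 380 to 654 in the former fits and 598 of 22445 without LN3 thymus 2.

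The 4 histone genes listed as known to make tailed messengers were Hist1h1c, Hist1h2bc, Hist2h2be and Hist3h2a. Their ratios of libraries of the higher over the lower ribosomal RNA class had a median of 3.99 in LN3 thymus, from 1.57 to 9.15. In WT thymocytes the median was 2.55, from 1.46 to 3.15. Hist2h2be was the lowest of the 4 in both groups. In the spleen, 1 of these 4 was called higher, against 17.9% of all genes. Hist3h2a was at 24.3, 11.4 and 26.1 CPM in LN3 spleen, against 8.09, 6.93 and 5.01 in WT CD8, a log2 difference of 1.63 (SE 0.54, adjusted p = 0.038 in edgeR). With the ribosomal RNA class as a term it was 0.27 (adjusted p = 0.823 in edgeR). Hist1h1c, the H1 gene with the highest mean CPM, was at 33.8, 11.2 and 21.2 CPM in LN3 spleen, against 15.1, 9.11 and 2.72 in WT CD8. Its groups overlapped (log2 difference 1.30, SE 0.78, adjusted p = 0.211 in edgeR). Hist1h2bc was at 14.04, 4.31 and 7.57 CPM against 4.21, 3.89 and 0.919, and was not called (adjusted p = 0.179 in edgeR). With the ribosomal RNA class as a term, Hist1h1c, Hist1h2bc and Hist2h2be were at −0.69, −0.79 and −0.22, none of them called. The median over these 4 without that term was 1.41, against 5.20 over the 61. Against WT thymocytes, 2 of the 4 were called lower in WT CD8, against 8.49% of all genes. They were Hist2h2be and Hist3h2a, the latter by 1.81 (SE 0.55, adjusted p = 0.0401 in edgeR).

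**Figure D5:**
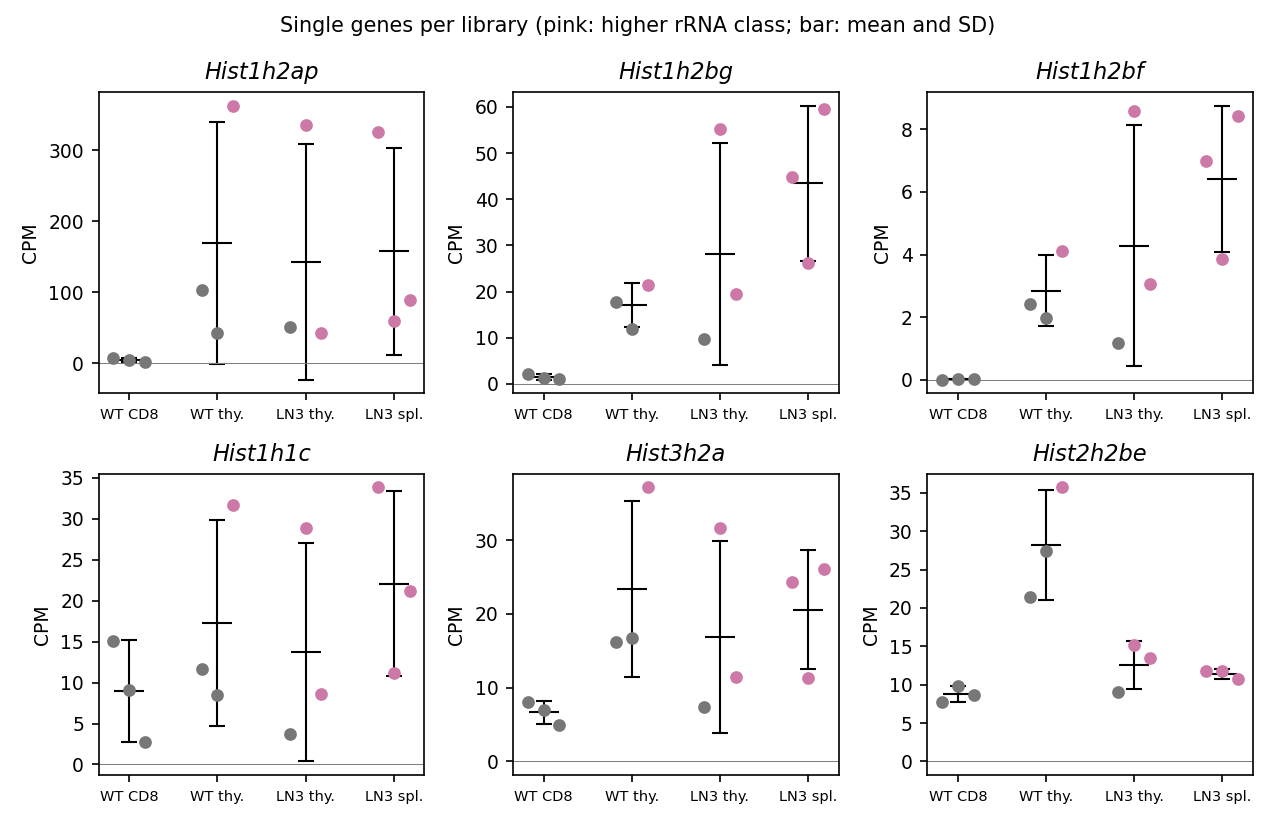
CPM of 6 histone genes in each library by group, with the mean and SD of each group and libraries of the higher ribosomal RNA class in pink. Hist1h2ap, Hist1h2bg and Hist1h2bf are lower in each WT CD8 library than in all others, at 1.58 to 6.99, 1.07 to 2.24 and 0 to 0.0316 CPM there. Hist2h2be is at 7.76 to 9.87 CPM in WT CD8 and highest in WT thymocytes.

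Genes around the histone messengers were followed as lists. Of all genes tested, 17.9% were called higher and 13.0% lower in LN3 spleen against WT CD8. For WT CD8 against WT thymocytes 8.49% were called lower. For LN3 thymus against WT thymocytes 6.06% were called higher and 5.21% lower. These shares apply to each list count below. The replication-independent variants, whose messengers mostly carry tails, rose in LN3 spleen against WT CD8 in 8 of 10 tested. The linker variant H1f0 was at 330, 192 and 282 CPM in LN3 spleen, against 9.89, 16.5 and 5.45 in WT CD8, a log2 difference of 4.66 (SE 0.64, adjusted p = 0.000287 in edgeR), and its groups did not overlap. H2afx, which marks DNA breaks when phosphorylated, rose by 3.15 (SE 0.53), H2afz by 2.15 (SE 0.36) and the centromeric H3 variant Cenpa by 1.82 (SE 0.31), all with an adjusted p of 0.0011 or less in edgeR. The replacement H3 genes H3f3a and H3f3b rose by 1.11 and 1.46 (adjusted p = 0.0118 and 0.00839 in edgeR). The median over the 10 variants was 1.64. In WT CD8 against WT thymocytes 7 of 10 variants fell. In LN3 thymus against WT thymocytes 1 of 10 was called, H1f0, which was at 146, 371 and 181 CPM against 35.0, 23.9 and 108, higher by 2.06 (SE 0.57, adjusted p = 0.0351 in edgeR).

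Of the genes that form and degrade histone messenger ends, 7 of 16 tested rose in LN3 spleen against WT CD8 and 0 fell. Slbp was at 145, 105 and 241 CPM against 46.7, 63.1 and 52.3 and rose by 1.60 (SE 0.30, adjusted p = 0.00209 in edgeR), with no overlap between groups. Casp8ap2, which takes part in histone messenger processing, was not called (1.21, adjusted p = 0.13 in edgeR). Of the regulators of histone gene transcription, 5 of 11 rose, among them the S phase kinase gene Cdk2 by 1.95 (SE 0.26) and its cyclin Ccna2 by 3.69 (SE 0.51), with adjusted p of 0.000261 and 0.000276 in edgeR. Npat, the coactivator of histone loci, was not called (1.15, adjusted p = 0.0645 in edgeR), nor was Hinfp, which binds H4 promoters (0.08, adjusted p = 0.791 in edgeR). Histone chaperones rose in 15 of 21, with Hjurp, the CENP-A chaperone, at 2.31 (SE 0.28, adjusted p = 0.000114 in edgeR).

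DNA replication genes, measured through tailed messengers, rose in 28 of 28 in LN3 spleen against WT CD8, with a median of 2.71, and fell in 22 of 28 in WT CD8 against WT thymocytes, with a median of −1.66. The spread of the histone sum within groups was wider than theirs. In LN3 thymus the replication list summed to 5010, 6238 and 3264 CPM in libraries 1, 2 and 3, where the histone sum was 171, 1606 and 372. In WT thymocytes it summed to 2690, 2753 and 4555 CPM, where the histone sum was 364, 222 and 1124. The histone sum was thus 3.41% of the replication sum in LN3 thymus 1 and 25.7% in LN3 thymus 2. In LN3 thymus against WT thymocytes 1 of 28 replication genes was called higher, Prim1, and 0 lower, beside 0 and 1 of the 61 histone genes.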

How the data were processed

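Counts per gene were estimated by the authors with kallisto 0.46.1 against GRCm38, per the submitters' processing notes, which also name FastQC and DESeq2. Which annotation release was used, and whether strand was, is not given in the sources used here. The deposited estimated counts were whole numbers in 100% of cells and were rounded anyway. The authors' second table, of variance-stabilized log2 values, served only for an alternative test. Near-identical histone copies share reads by estimation.

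Genes without counts (16997 of 54351) and those failing edgeR's filterByExpr were left out, and 20897 were tested with edgeR 4.0.16 in R 4.3.3 (TMM scaling, 4 group means over 12 libraries, 8 residual degrees of freedom, robust quasi-likelihood test). The code was run on simulated counts with the same spread for all genes and no ribosomal RNA classes, which does not measure its error in these data. The common biological coefficient of variation was 0.441. Genes were called at a Benjamini-Hochberg adjusted p under 0.05. SE is the size of the log2 difference divided by the square root of F. CPM use TMM factors, and floors and intervals (95%) cover counting error only. DESeq2 1.42.0 and limma 3.58.1 were alternatives. Stem-loops and 31-base words came from GENCODE vM21, in which 53774 of 54351 symbols were found, and promoters from RefSeq. The limit of 100 bases past the stem-loop was set after the distances were seen.

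Named genes were the highest gene of each type, the 4 genes of the tailed list, the 4 called genes with the lowest adjusted p and the 4 with the largest difference per comparison, 10 related genes whatever their values, and the 2 lowest adjusted p of each further list. Other genes singled out were chosen after their values were seen. Histone genes, lists and tests were chosen with earlier results of these data known.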

Additional observations from a re-analysis of the deposited data

Results flagged for a closer look

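The leukaemia difference, LN3 against wild type, was smaller in the thymus comparison for 19 histone genes by the interaction test (edgeR, adjusted p under 0.05). Of all genes tested, 3.29% were called in that direction. Hist1h2bf, an H2B gene, had a difference of differences of −7.37 on the log2 scale, with WT CD8 holding 2 counts in all. Hist1h2bg was at −4.13, Hist1h2bn at −5.60 and Hist1h2bm at −6.44, all H2B genes. Hist1h3b, an H3 gene, was at −6.38. Hist1h2ah, an H2A gene, was at −9.54, a fitted value that depends on the prior count because WT CD8 had no count. The spleen side of this difference sets 3 libraries of the higher ribosomal RNA class against 3 of the lower, and its part in the result cannot be told apart from the group within that pair. The wild-type controls also differ in cell type between the organs, so organ and control cell type cannot be told apart. The median log2 difference was −3.89 in WT CD8 against WT thymocytes, with 38 genes called. It was 0.67 in LN3 spleen against LN3 thymus, with 0 called.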

How the results depend on the processing

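Scaling, filter, count test, design, input values and left-out libraries were varied, and 4 alternatives on the ribosomal RNA share were chosen after seeing the data. With library totals as scaling, the median over all genes in the spleen comparison moved from −0.11 to −0.51, and that of the histone genes from 5.20 to 4.73. The count of histone genes higher in LN3 spleen than WT CD8 was 17 with the ribosomal RNA class as a term and 41 to 54 when 1 library was left out. Over all genes it was 1519 and 2416 to 4749. The count lower in WT CD8 than WT thymocytes was 24 without a filter, and 21 to 41 without 1 library. Over all genes it was 1523 and 1013 to 1807. The count lower in the interaction was 12 without a filter, 39 in DESeq2, 11 with the class term and 5 to 37 without 1 library. Over all genes it was 648, 1256, 494 and 380 to 664. In LN3 thymus against WT thymocytes, 0 histone genes were lower without a filter or with only the 2 groups in the fit. With the log2 share as a term 3 were lower. Without 1 library, 0 to 1 were higher and 0 to 1 lower. Over all genes, 956 of 37354, 668 of 17790 and 1430 of 20897 were lower in the first 3 of these fits. Without 1 library, 562 to 1652 of all genes were higher and 641 to 1122 lower. The cause of these shifts was not tested.

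LN3 thymus and LN3 spleen samples share tumour numbers in their titles, but the labels do not state a pairing. Same-numbered libraries correlated at −0.53 to 0.34 in their deviations from group means, and 3 of 12 pairs exceeded 0.1. With so few libraries a group, and ribosomal RNA classes mixed within groups, these values cannot show whether the samples are paired. With the replicate block the counts were 47 higher in LN3 spleen, 27 lower in WT CD8, 1 lower in LN3 thymus, 4 lower in the interaction and 0 between the LN3 groups. Over all 20897 genes they were 3150, 1346, 756 and 427, and 29 higher and 2 lower between the LN3 groups.

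Over all tested histone genes, the sign turned for 25 to 30 of 61 in LN3 thymus against WT thymocytes and 6 to 7 in the spleen with a ribosomal RNA term, for 40 of 59 in the thymus in the lower class alone, and for up to 43 in the thymus and 12 between the LN3 groups without 1 library. None of these was called, with or without the alternative. Of the named genes, in LN3 thymus against WT thymocytes, leaving out 1 library gave −1.48 to 0.45 for Hist1h1c, −1.85 to 0.99 for Hist1h2ap, −0.22 to 1.16 for Hist1h2bg, −0.04 to 1.97 for Hist1h3e, −1.91 to 1.16 for Hist2h4, −1.39 to 0.42 for Hist1h2bc and −1.31 to 0.04 for Hist3h2a. It gave −0.26 to 0.91 for H2afx, −0.08 to 0.31 for H3f3a, −0.40 to 0.21 for H3f3b and −0.32 to 0.13 for Cenpa. In the lower class alone Hist1h2bg was at −0.63 and Hist1h3e at −0.67, and in the higher class alone H2afx was at −0.23, H2afz at −0.10 and H3f3a at −0.10. Slbp was at −0.02 and H3f3a at −0.11 with library totals, and H3f3a at −0.08 with upper-quartile factors, −0.06 with the class term and −0.00 with the log2 share. In the spleen, the class term gave −0.69 for Hist1h1c, −0.79 for Hist1h2bc, −0.22 for Hist2h2be and −0.00 for Hinfp, and the log2 share −0.52, −0.69 and −0.04 for the first 3. Library totals gave −0.02 for Hist2h2be and −0.31 for Hinfp, which was at −0.25 with upper-quartile factors, −0.05 in limma and −0.02 to 0.19 without 1 library.

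Depth limits the lowest genes, since 3 counts correspond to 0.0657 to 0.262 CPM and histone genes held at most 0.129% of counts. Untailed messengers were counted only as far as the poly(A) selection carried them, and what part of each level came from tailed forms was not measured.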
